A study of Homo sapiens with 4 samples.

Results

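The genes described here are the components of the canonical Wnt pathway and a set of classical β-catenin target genes, read on 4 whole-transcriptome arrays of HCT116 cells. A member was taken as the transcript cluster, the probe set that summarises a locus, whose only gene symbol in the array annotation was that of the member, and the cluster with the highest mean signal was used where there was more than 1. Of the 49 genes listed, 47 had such a cluster among 22411 genes, and the signals of TCF7 and EPHB2 were not analysed here. HCT116 is an established human colon cancer line. Cells of the control group had been transfected with a control siRNA, and cells of the other group with an siRNA against CDK8, in each case at 50 nM for 48 h. Each group held 2 arrays described as biological replicates. CDK8 is the kinase of the Mediator kinase module and is known as a coactivator of β-catenin in colon cancer cells. All groups share the HCT116 background, which carries a stabilising mutation of CTNNB1 beside intact APC, and the lipid transfection. With a single group given CDK8 siRNA, loss of CDK8 and other effects of that siRNA cannot be told apart.

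In the canonical pathway a Wnt ligand joins a Frizzled receptor to LRP5 or LRP6 at the cell surface, and Dishevelled proteins relay the signal. Without a ligand, a destruction complex of APC, axin, casein kinase 1 and GSK3 phosphorylates β-catenin, and the ubiquitin ligase subunit BTRC marks it for degradation. Stabilised β-catenin binds TCF and LEF proteins in the nucleus, recruits BCL9 and Pygopus, and displaces TLE corepressors. In intestinal epithelium the pathway maintains the stem cells of the crypt, and several of its targets are feedback inhibitors.

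Signals are log2 values on the RMA scale, differences are CDK8 siRNA minus control siRNA in log2 units ± standard error (SE) from limma, and n = 2 arrays per group throughout. A gene was called higher or lower where its Benjamini-Hochberg adjusted p over all tested genes was under 0.05. An exact permutation test of 2 arrays against 2 cannot give a p below 0.333, so tests rest on limma's pooled spread. The labels do not say that replicates came from separate cultures, and p-values measure the spread between these arrays. CDK8 had signals of 9.99 and 10.04 with control siRNA and 7.25 and 7.45 with CDK8 siRNA, a fall of 6.34-fold (adjusted p = 4.43e-05). CDK19, the paralog that can take the place of CDK8 in the kinase module, also fell, by 2.14-fold (-1.10 ± 0.09, adjusted p = 3.29e-04), from 8.50 and 8.57 to 7.52 and 7.35. Median signals over all transcript clusters were 4.24 on both control arrays and 4.31 to 4.32 on the CDK8 siRNA arrays. Epithelial markers EPCAM, CDH1, KRT8, KRT18 and KRT19 reached the signal level used for testing, while the intestinal genes CDX2, VIL1 and LGALS4 did not. Of the 5 genes tested 3 were called higher and 1 lower, beside calls for 49.5% of all tested genes. CDH1 alone had a difference of 2.83. The log2 of the summed signal of the 8 epithelial genes was 14.19 to 14.21 in control cells and 14.40 to 14.58 with CDK8 siRNA. The part of these epithelial differences in the results was not tested. Of 11 leukocyte, fibroblast and endothelial markers on the array only COL1A1, a fibroblast collagen gene, reached that level. It was called higher (0.26 ± 0.07, adjusted p = 0.0287), a call that did not hold with any array left out (adjusted p of 0.0840 to 0.135), with quantile normalization (0.0574) or with median centring (0.0792). The log2 of the summed signal of the 4 fibroblast genes was at most 6.06 in control cells and at least 6.28 with CDK8 siRNA, that of the 3 leukocyte genes measured 5.15 to 5.22 and 5.26 to 5.52, and that of the 4 endothelial genes 5.58 to 5.59 and 5.60 to 5.67. Their part in the results was not tested. Fewer cells of a type and less RNA per cell cannot be told apart in these bulk samples.

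The signal level for testing was 4.28, the median over transcript clusters of the mean of 4 arrays, and 37 of the 47 members reached it. Every tested member had a mean of at least 4.48 in each group, so none passed through 1 group alone. Of the 37 tested members 22 were lower with CDK8 siRNA, 4 were higher and 11 did not pass. The calls covered 70.3% of the tested members, against 49.5% of all 13956 tested genes. Lower calls made up 59.5% of the tested members against 26.4% of all genes, and higher calls 10.8% against 23.1%. The median difference of the tested members was -0.33, beside 0.005 over all tested genes. The members were chosen with earlier results of these data known, so these shares describe the list and do not test it. The share of called genes moved with signal. It was 22.9% in the lowest quartile of tested genes by mean signal, which held 4 of the members, and 46.6%, 61.7% and 66.9% in the next quartiles, which held 12, 11 and 10. The members called in those quartiles, from the lowest up, numbered 1, 8, 10 and 7. The groups did not overlap in 30 of the 37 members, against 74.7% of all tested genes. Called changes of at least 2-fold were measured for 7 of the 37, against 10.7% of all tested genes.

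**Figure D1:**
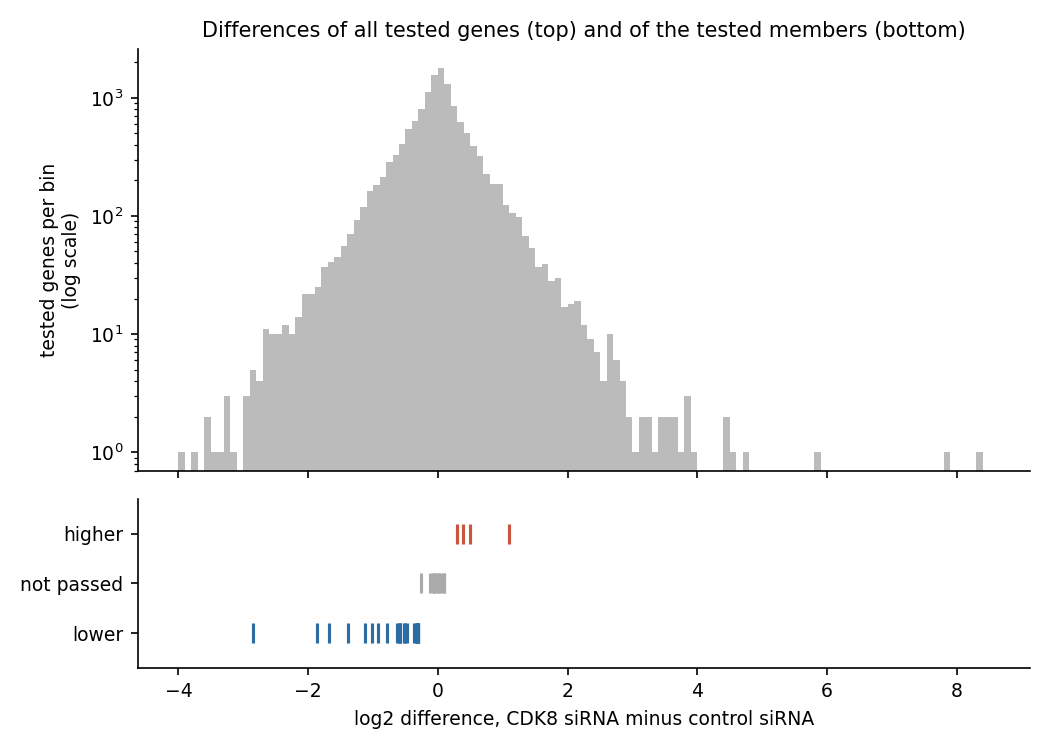
The upper panel counts all 13956 tested genes by their log2 difference, CDK8 siRNA minus control siRNA, in bins of 0.1 on a logarithmic axis. The lower panel marks each of the 37 tested members by call, and the 22 lower members reach from -2.85 to -0.30 while the 4 higher ones reach from 0.30 to 1.10.

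At the cell surface, both coreceptors and 4 of the 7 Frizzled genes measured were lower, and 0 of the 10 receptor genes were higher. Lower calls made up 70% of the 10 and higher calls 0%, against 26.4% and 23.1% of all tested genes. LRP5, a coreceptor that docks axin when Wnt is bound, had signals of 6.68 and 6.82 with control siRNA and 5.62 on both arrays with CDK8 siRNA. The groups did not overlap, and LRP5 fell 2.19-fold (-1.13 ± 0.08, adjusted p = 2.33e-04). Its paralog LRP6 had signals of 9.93 and 9.83 in control cells and 9.02 and 9.17 with CDK8 siRNA, a fall of 1.72-fold (-0.79 ± 0.09, adjusted p = 0.00101). Both CDK8 siRNA arrays lay below both control arrays for LRP6 as well.

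FZD3, a Frizzled receptor known for its part in axon guidance and planar polarity, fell the most among the receptor genes. Its signals were 8.66 and 8.79 with control siRNA and 6.77 and 7.31 with CDK8 siRNA. The fall was 3.22-fold (-1.69 ± 0.18, adjusted p = 8.81e-04), with a gap between the CDK8 siRNA arrays that was wider than that between the control arrays but smaller than the distance between groups. FZD2 had signals of 7.39 and 7.62 in control cells and 6.81 and 7.02 with CDK8 siRNA, again without overlap, and fell 1.51-fold (-0.59 ± 0.12, adjusted p = 0.00820). Smaller falls were called for FZD4 (-0.34 ± 0.09), for FZD7 (-0.33 ± 0.08) and for LGR4, a receptor of R-spondins that protects Frizzled proteins from removal (-0.33 ± 0.08). FZD1, FZD5 and FZD6 did not pass. Their differences were 0.05 for FZD1 (95% interval -0.17 to 0.27), 0.09 for FZD5 (-0.12 to 0.30) and -0.08 for FZD6 (-0.29 to 0.14), which leaves room for small changes, and that of FZD1 turned negative with quantile normalization (-0.0087), with median-centred arrays (-0.025) and without control siRNA replicate 1 (-0.03). The calls of FZD2, FZD4, FZD7 and LGR4 did not hold with any of the 4 arrays left out. Their differences were then -0.705 to -0.475, -0.42 to -0.26, -0.39 to -0.26 and -0.375 to -0.285. Such a fit leaves a single array in its group, and fewer genes were then called across the whole array as well. The FZD3 call did not hold without control siRNA replicate 1 (adjusted p = 0.0532) or replicate 2 (adjusted p = 0.0599), whereas LRP5 and LRP6 passed in each case.

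Of the Dishevelled genes, whose products polymerise below active receptors, DVL2 and DVL3 were lower and DVL1 did not pass. Lower calls made up 66.7% of the 3 and higher calls 0%, against 26.4% and 23.1% of all tested genes. DVL2 had signals of 6.71 and 6.69 with control siRNA and 6.24 and 6.15 with CDK8 siRNA. It fell 1.42-fold (-0.51 ± 0.07, adjusted p = 0.00273) with no overlap. DVL3 fell 1.24-fold (-0.31 ± 0.08, adjusted p = 0.0190), and DVL1 stood at -0.06 with a 95% interval from -0.23 to 0.12. The DVL2 call did not hold without control siRNA replicate 1 (adjusted p = 0.0543) or replicate 2 (adjusted p = 0.0531), and the DVL3 call with any array left out (adjusted p of 0.0661 to 0.123).

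CTNNB1, which encodes β-catenin itself, did not pass. Its signals were 9.79 and 9.73 with control siRNA and 9.91 and 9.79 with CDK8 siRNA. The groups met at 9.79, and the difference was 0.09 ± 0.08 (adjusted p = 0.397) with a 95% interval from -0.11 to 0.29. These are transcript signals and say nothing of the protein, which in this pathway is set mainly by degradation.

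The kinases and the ubiquitin ligase subunit of the destruction complex were lower, while the scaffold APC was slightly higher. CSNK1A1, casein kinase 1α, which places the first phosphate on β-catenin, had signals of 12.59 and 12.58 with control siRNA and 11.64 and 11.67 with CDK8 siRNA. Arrays of a group nearly coincided, and CSNK1A1 fell 1.91-fold (-0.93 ± 0.07, adjusted p = 2.65e-04). BTRC had signals of 8.49 and 8.35 in control cells and 7.85 and 7.81 with CDK8 siRNA, and its groups were also apart. BTRC fell 1.51-fold (-0.59 ± 0.08, adjusted p = 0.00219). The GSK3 kinases, which continue the phosphorylation, fell by less. GSK3A was lower by 1.30-fold (-0.38 ± 0.09, adjusted p = 0.0141) and GSK3B by 1.23-fold (-0.30 ± 0.07, adjusted p = 0.0162).

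APC, the scaffold that holds β-catenin in the complex, rose 1.31-fold (0.39 ± 0.08, adjusted p = 0.0122). TNKS, a tankyrase that marks axin for degradation, rose 1.23-fold (0.30 ± 0.08, adjusted p = 0.0215), and its paralog TNKS2 did not pass at -0.06 (95% interval -0.27 to 0.16), a value that was 0.03 without control siRNA replicate 2. The limiting scaffold AXIN1 stood at -0.02 (95% interval -0.19 to 0.15). APC2, a homologue best known from neurons, stood at 0.01 (95% interval -0.18 to 0.20), and its sign turned with quantile normalization (-0.051), with median centring (-0.065) and without control siRNA replicate 1 (-0.01) or CDK8 siRNA replicate 1 (-0.05). Of these 10 genes 4 were lower, 2 were higher and 4 did not pass. Lower calls made up 40% and higher calls 20%, against 26.4% and 23.1% of all tested genes. The calls of APC and TNKS did not hold with any array left out (adjusted p of 0.0517 to 0.117 and 0.0554 to 0.137), that of TNKS also with median-centred arrays (0.23, adjusted p = 0.0566). The calls of GSK3A and GSK3B did not hold without control siRNA replicate 1 (adjusted p = 0.132 and 0.0915), control siRNA replicate 2 (0.0967 and 0.102) or CDK8 siRNA replicate 2 (0.0792 and 0.0655), whereas CSNK1A1 and BTRC passed in each case.

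**Figure D2:**
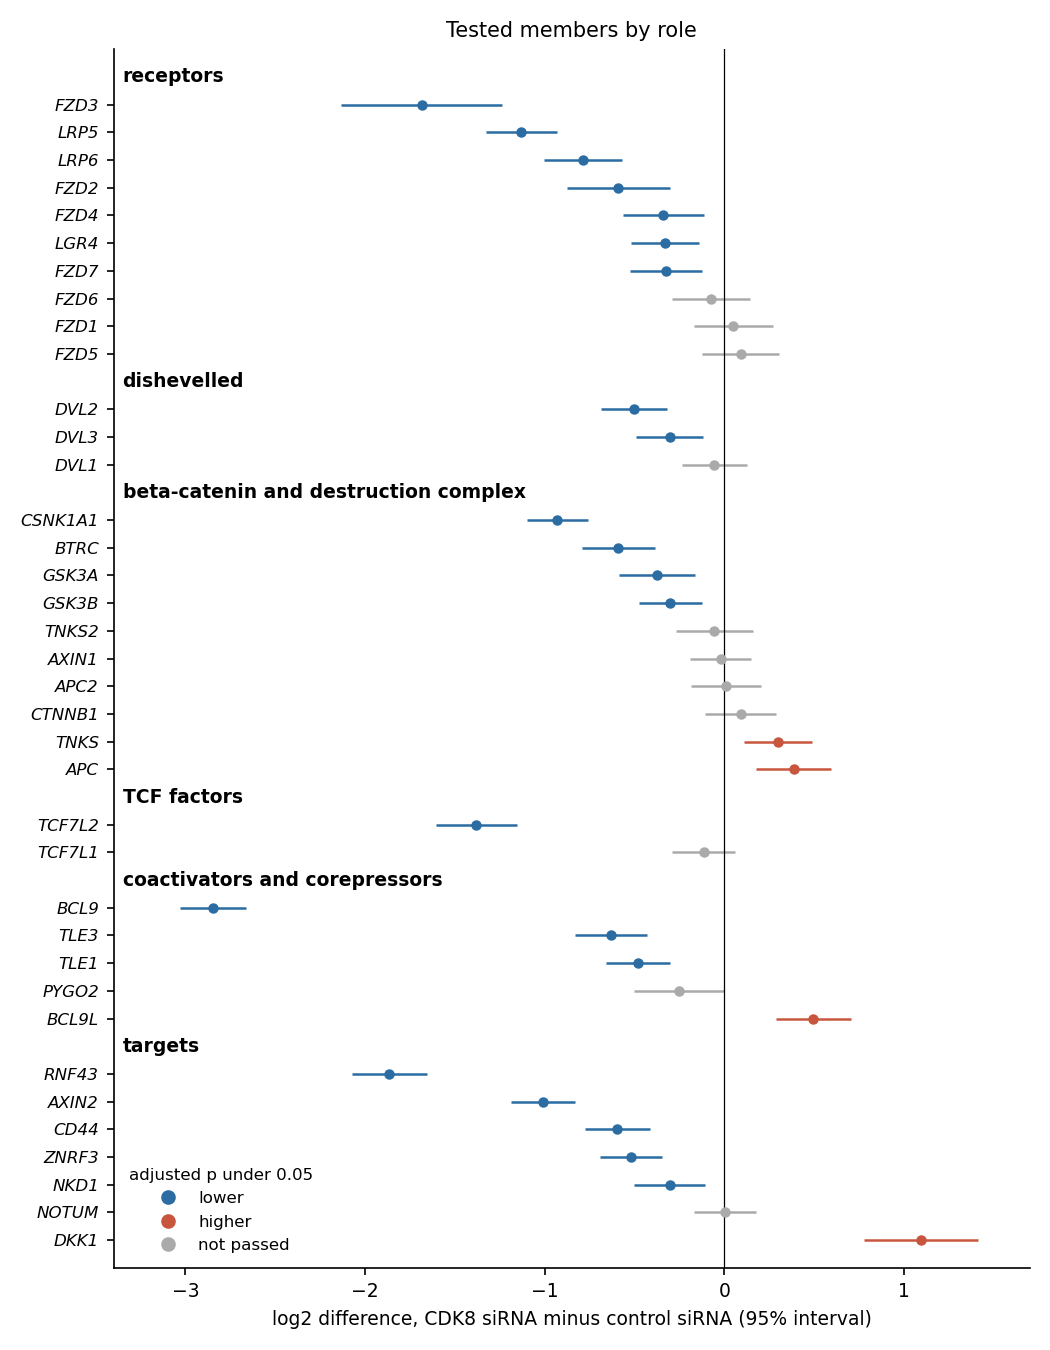
Points give the log2 difference, CDK8 siRNA minus control siRNA, of the 37 tested members in 6 role groups, and bars give limma's 95% interval. Blue marks genes called lower, red those called higher and grey those that did not pass. BCL9 at -2.85 and DKK1 at 1.10 are the extremes, and CTNNB1 at 0.09 lies among the genes that did not pass.

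Of the TCF and LEF factors, the DNA-binding partners of β-catenin, TCF7L2 was called and TCF7L1 was not, out of 2 tested. Over all tested genes 49.5% were called and 26.4% were lower. TCF7L2, the main factor of this family in colon epithelium, had signals of 11.76 and 11.96 with control siRNA and 10.48 on both arrays with CDK8 siRNA. The groups were well apart, and it fell 2.60-fold (-1.38 ± 0.09, adjusted p = 1.89e-04), a call that held with each array left out. TCF7L1, which acts mainly as a repressor, stood at -0.12 (95% interval -0.29 to 0.06). LEF1 had signals of 3.54 to 3.62 on the 4 arrays, under the level used for testing.

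BCL9, the adaptor that joins β-catenin to Pygopus, showed the widest difference of all tested members, and its paralog BCL9L lay on the other side of 0. BCL9 had signals of 8.94 and 8.89 with control siRNA and 6.03 and 6.11 with CDK8 siRNA. Replicates differed by less than 0.1, and BCL9 fell 7.19-fold (-2.85 ± 0.07, adjusted p = 3.29e-05). Of the 13956 tested genes 15 had a lower difference than BCL9, and the fall exceeded that of CDK8 itself. BCL9L had signals of 7.94 and 8.10 in control cells and 8.53 and 8.50 with CDK8 siRNA, and it rose 1.41-fold (0.495 ± 0.08, adjusted p = 0.00481). PYGO2, the Pygopus gene of the list, did not pass at -0.26 ± 0.10 (adjusted p = 0.0860), although its arrays did not overlap. It passed as lower with median-centred arrays (-0.33, adjusted p = 0.0379).

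Among the Groucho-type corepressors that occupy TCF proteins in the absence of β-catenin, TLE1 and TLE3 were lower and TLE4 was under the level used for testing. TLE3 had signals of 6.63 and 6.77 with control siRNA and 6.08 and 6.06 with CDK8 siRNA, with no overlap. It fell 1.55-fold (-0.63 ± 0.08, adjusted p = 0.00166), and TLE1 fell 1.39-fold (-0.48 ± 0.07, adjusted p = 0.00304). The BCL9L call did not hold without control siRNA replicate 1 (adjusted p = 0.0553), CDK8 siRNA replicate 1 (adjusted p = 0.0718) or CDK8 siRNA replicate 2 (adjusted p = 0.0656), and the TLE1 call without control siRNA replicate 2 (adjusted p = 0.0552). BCL9 and TLE3 passed with each array left out. Of the 5 coactivator and corepressor genes tested 60% were called lower and 20% higher, against 26.4% and 23.1% of all tested genes.

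Of the 16 target genes 7 were tested. Lower calls made up 71.4% of those tested and higher calls 14.3%, against 26.4% and 23.1% of all tested genes. RNF43, ZNRF3, AXIN2, NKD1 and CD44 were lower, DKK1 was higher and NOTUM, which inactivates Wnt ligands by removing their lipid, did not pass (0.005, 95% interval -0.17 to 0.18). The sign of that value turned with quantile normalization (-0.029) and median centring (-0.07), and without control siRNA replicate 2 (-0.01) or CDK8 siRNA replicate 2 (-0.005). RNF43 encodes a ubiquitin ligase that removes Frizzled receptors from the surface. Its signals were 10.07 and 10.10 with control siRNA and 8.30 and 8.14 with CDK8 siRNA. It fell 3.64-fold (-1.87 ± 0.08, adjusted p = 7.16e-05), and 140 of all tested genes had a lower difference. Its paralog ZNRF3 had signals of 7.20 and 7.22 in control cells and 6.67 and 6.71 with CDK8 siRNA, and it fell by less, 1.43-fold (-0.52 ± 0.07, adjusted p = 0.00200). The groups did not overlap for either ligase.

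AXIN2, the inducible axin that rebuilds the destruction complex and a standard readout of β-catenin activity, had signals of 6.54 and 6.61 with control siRNA and 5.58 and 5.55 with CDK8 siRNA. The groups were apart, and AXIN2 fell 2.01-fold (-1.01 ± 0.07, adjusted p = 2.36e-04). NKD1, which binds and antagonises Dishevelled, fell 1.24-fold (-0.31 ± 0.08, adjusted p = 0.0230). CD44, a hyaluronan receptor of crypt and tumour cells, had signals of 14.82 and 14.74 in control cells and 14.20 and 14.17 with CDK8 siRNA. It fell 1.51-fold (-0.60 ± 0.07, adjusted p = 0.00144). Its other transcript cluster had signals of 12.07 and 12.59 with control siRNA and 10.89 and 11.35 with CDK8 siRNA, a difference of -1.21 in the same direction, and CD44 was the only member with more than 1 cluster. The mean of both clusters gave -0.90.

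DKK1, a secreted antagonist of LRP5 and LRP6, moved the other way. Its signals were 9.21 and 8.97 with control siRNA and 10.32 and 10.05 with CDK8 siRNA. The groups did not overlap, and DKK1 rose 2.14-fold (1.10 ± 0.13, adjusted p = 0.00121). The DKK1 call did not hold without control siRNA replicate 2 (adjusted p = 0.0527) and the NKD1 call without control siRNA replicate 1 (adjusted p = 0.149), control siRNA replicate 2 (0.125) or CDK8 siRNA replicate 2 (0.0840), whereas RNF43, ZNRF3, AXIN2 and CD44 passed with each array left out.

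**Figure D3:**
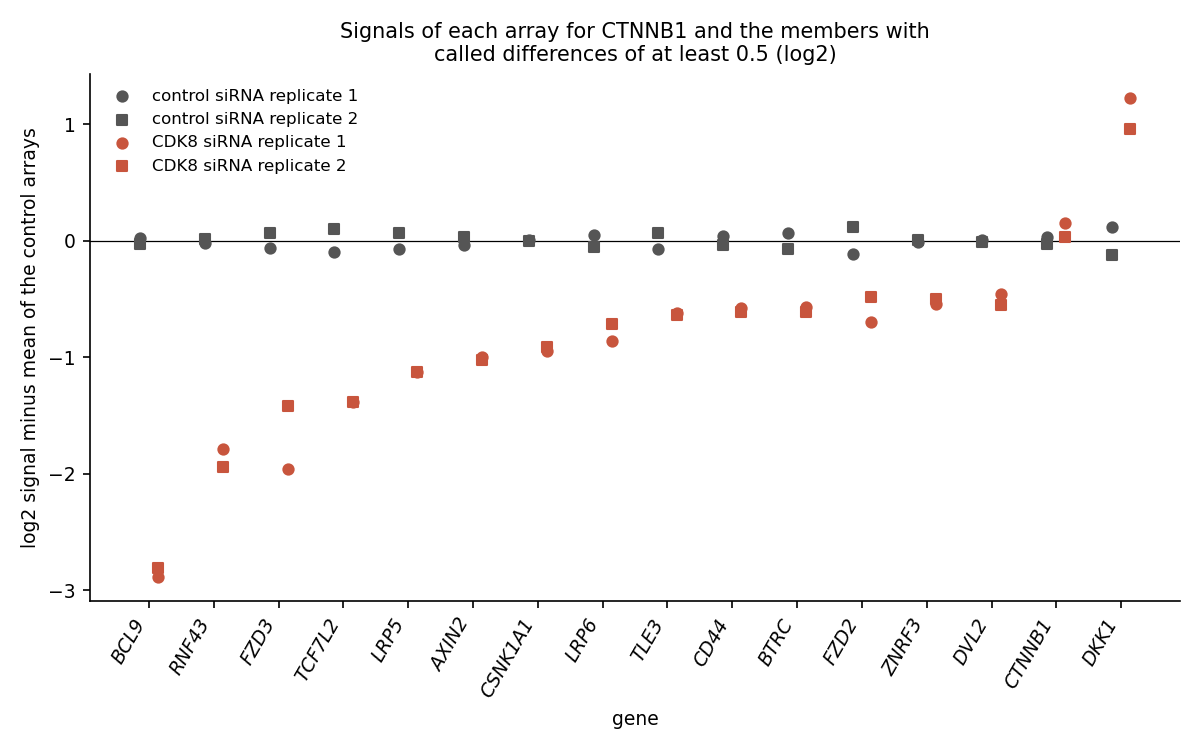
Each point is the log2 signal of an array minus the mean of the control arrays, for CTNNB1 and the 15 members with called differences of at least 0.5. Grey points are control siRNA and red points CDK8 siRNA, with circles for replicate 1 and squares for replicate 2. The red points lie below the grey ones for 14 genes and above them for DKK1, and for CTNNB1 the groups meet. Differences of that size were called for 30.2% of all tested genes.

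Promoter windows of DKK1, CD44 and RNF43 are shown because a fall in RNF43 and CD44 stood beside a rise in DKK1. The windows of AXIN2 and ZNRF3, the other called targets with differences of at least 0.5, were not analysed here. The sequences are those of RefSeq on GRCh38.p14, from 250 bases before to 50 bases after an annotated start. The windows lie at chr10:52314031-52314330 on the plus strand (DKK1), chr11:35138921-35139220 on the plus strand (CD44), and chr17:58417485-58417784 and chr17:58402672-58402971 on the minus strand (the upstream and downstream starts of RNF43). Capitals mark the letters CTTTGA, a form of the core that TCF and LEF proteins bind, or its reverse complement TCAAAG. Other forms of the core were not searched for, so a match below means these letters only.
DKK1: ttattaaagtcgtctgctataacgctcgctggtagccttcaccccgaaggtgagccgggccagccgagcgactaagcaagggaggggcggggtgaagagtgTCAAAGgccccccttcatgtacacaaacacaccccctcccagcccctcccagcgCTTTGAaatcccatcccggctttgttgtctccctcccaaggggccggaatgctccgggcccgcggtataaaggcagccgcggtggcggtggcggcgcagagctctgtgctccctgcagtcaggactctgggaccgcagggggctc
CD44: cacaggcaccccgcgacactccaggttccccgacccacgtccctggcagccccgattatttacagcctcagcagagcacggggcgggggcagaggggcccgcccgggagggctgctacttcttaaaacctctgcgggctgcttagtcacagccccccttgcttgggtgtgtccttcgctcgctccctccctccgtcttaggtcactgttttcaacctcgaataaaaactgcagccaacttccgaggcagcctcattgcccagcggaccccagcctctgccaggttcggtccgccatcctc
RNF43 upstream start: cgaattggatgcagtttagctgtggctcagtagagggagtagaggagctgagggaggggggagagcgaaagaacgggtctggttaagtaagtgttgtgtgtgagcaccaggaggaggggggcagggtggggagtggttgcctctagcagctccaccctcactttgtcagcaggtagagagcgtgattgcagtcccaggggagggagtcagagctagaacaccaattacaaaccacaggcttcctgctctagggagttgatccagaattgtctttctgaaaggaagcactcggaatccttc
RNF43 downstream start: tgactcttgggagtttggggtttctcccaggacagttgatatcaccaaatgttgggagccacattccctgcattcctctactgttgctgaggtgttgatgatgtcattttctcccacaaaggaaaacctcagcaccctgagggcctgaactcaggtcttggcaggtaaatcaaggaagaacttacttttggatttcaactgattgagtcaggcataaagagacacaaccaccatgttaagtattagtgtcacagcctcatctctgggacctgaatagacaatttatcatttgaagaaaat
The DKK1 window held 2 matches, beginning 149 and 95 bases upstream of the start, and the CD44 and RNF43 windows held 0. Matches occurred in 12.9% of the 35116 windows of all genes, and in 5 of the 45 windows of 33 members (11.1%). TCF7 and EPHB2, whose signals were not analysed, are among the 33, and the windows of EPHB2 overlap almost fully. Of those 33 members 14 were called lower, of which CSNK1A1 had a match, and 2 were called higher, of which DKK1 had matches. The other members with a match, SP5 and TLE4, had signals too low to test. A match is a description of the letters and not a binding site, and enhancers, where many TCF sites lie, are outside these windows.

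The remaining members, the 10 under the level used for testing, had signals between 3.22 and 4.25 on every array. They were LEF1, TLE4 and 8 targets. The targets were LGR5 and ASCL2, which mark and specify intestinal stem cells, EPHB3, a receptor that positions cells along the crypt, the transcription factors SP5 and PROX1, the inhibitors APCDD1 and DKK4, and the receptor TNFRSF19. Tested without the signal filter, their differences lay between -0.07 and 0.17, and 0 of the 10 passed limma's adjusted threshold (smallest adjusted p = 0.144). RMA compresses differences at such signals, and a change that was not detectable at these signals is not shown to be absent.

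Other genes of the pathway, from lists that hold none of the members, gave a mixed picture. These lists too were chosen with earlier results of these data known, so their shares are a description. Of 112 such genes 106 had a cluster of their own and 71 were tested, of which 32 were lower, 14 were higher and 25 did not pass (64.8% called, 45.1% lower and 19.7% higher, against 49.5%, 26.4% and 23.1% of all tested genes). Of 19 WNT ligand genes 13 were under the level used for testing. WNT16 fell 6.70-fold (-2.75 ± 0.10, adjusted p = 4.94e-05), and WNT3 rose 1.34-fold (0.42 ± 0.08, adjusted p = 0.00674), a call that did not hold without control siRNA replicate 1 (adjusted p = 0.0852) or replicate 2 (0.0756). WNT10B, at 0.23 ± 0.07 (adjusted p = 0.0491), lost its call with any array left out (adjusted p of 0.0994 to 0.184), without the filter (0.0615), with quantile normalization (0.0711), with median centring (0.140) and with robust settings (0.0501). WLS, which carries Wnt ligands to the cell surface, fell 4.94-fold (-2.31 ± 0.08, adjusted p = 4.84e-05) and was the only called gene of 3 tested for ligand secretion and R-spondins.

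Among 6 further receptor genes 3 were lower, 1 was higher and 2 did not pass. Lower calls made up 50% and higher calls 16.7%, against 26.4% and 23.1% of all tested genes. KREMEN1, which binds Dickkopf proteins, fell 2.84-fold (-1.51 ± 0.15, adjusted p = 6.98e-04). RYK and ROR2, receptors of Wnt ligands outside the Frizzled family, fell by 0.51 and by 0.31 on the log2 scale, and ROR1 rose by 0.41. Of the secreted inhibitors 2 were tested, of which FRZB rose 1.44-fold (0.53 ± 0.08, adjusted p = 0.00289) and DKK3 did not pass. The ROR2 call did not hold with any array left out (adjusted p of 0.0708 to 0.145), those of RYK and ROR1 without control siRNA replicate 1 (0.0503 and 0.0637) or replicate 2 (0.0553 and 0.0552), and that of FRZB without CDK8 siRNA replicate 2 (0.0505).

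Cytoplasmic regulators were lower in 10 of 17 tested genes, higher in 3 and did not pass in 4 (76.5% called, against 49.5% of all tested genes). Lower calls made up 58.8% of the 17 and higher calls 17.6%, against 26.4% and 23.1% of all tested genes. PPP2R1A, the scaffold of the phosphatase PP2A, fell 3.19-fold (-1.68 ± 0.13), its regulatory subunit gene PPP2R5C 1.77-fold (-0.83 ± 0.07), and the casein kinase 1 genes CSNK1G1 and CSNK1G2 2.39-fold (-1.26 ± 0.07) and 1.72-fold (-0.79 ± 0.11). The CSNK1G2 call did not hold without control siRNA replicate 1 (adjusted p = 0.0712) or replicate 2 (0.0786). The subunits of PP2A did not move together. PPP2CA, its catalytic subunit gene, rose 1.34-fold (0.42 ± 0.07, adjusted p = 0.00473), and the regulatory subunit gene PPP2R5A did not pass (0.145 ± 0.07, adjusted p = 0.154). The others called higher were FBXW11, a paralog of BTRC (0.37 ± 0.07), and TAX1BP3, which binds β-catenin (0.34 ± 0.08). The PPP2CA call did not hold without control siRNA replicate 2 (adjusted p = 0.0599), and those of FBXW11 and TAX1BP3 held in 1 of the 4 fits with an array left out (adjusted p of 0.0376 to 0.0841 and 0.0385 to 0.140). Nuclear regulators were lower in 7 of 12 tested genes, higher in 1 and did not pass in 4 (66.7% called). Over all tested genes 49.5% were called. Of these nuclear regulators 58.3% were called lower and 8.33% higher, against 26.4% and 23.1% of all tested genes. RUVBL1, an ATPase that binds β-catenin, fell 3.40-fold (-1.77 ± 0.11), the deacetylase gene HDAC2 2.40-fold (-1.27 ± 0.11), TLE5, a short Groucho family protein, 2.16-fold (-1.11 ± 0.09), and CBY1, an antagonist that binds β-catenin, 1.95-fold (-0.97 ± 0.14). The CBY1 call did not hold without CDK8 siRNA replicate 1 (adjusted p = 0.0622) or replicate 2 (0.0824). CDC73, a subunit of the PAF1 complex, rose 1.27-fold (0.34 ± 0.07, adjusted p = 0.0112), a call that held in 1 of the 4 fits with an array left out (adjusted p of 0.0421 to 0.0931).

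Further genes known as β-catenin targets were lower in 6 of 16 tested, higher in 5 and did not pass in 5, with a median of -0.10. Lower calls made up 37.5% of them and higher calls 31.2%, against 26.4% and 23.1% of all tested genes. SOX4 (-3.93 ± 0.12), JAG1, a Notch ligand (-2.26 ± 0.09), SOX9 (-1.94 ± 0.18) and BMP4 (-1.59 ± 0.16) fell, with adjusted p between 3.31e-05 and 7.01e-04. The genes called higher include well-known targets. CCND1, which encodes cyclin D1, rose 1.83-fold (0.87 ± 0.10, adjusted p = 0.00106), with signals of 14.60 and 14.38 in control cells and 15.32 and 15.40 with CDK8 siRNA. MYC, the growth regulator, rose 1.41-fold (0.495 ± 0.11, adjusted p = 0.0123), from 10.59 and 10.36 to 11.05 and 10.89. The groups did not overlap for either gene. The Notch receptor gene NOTCH2 rose 1.76-fold (0.82 ± 0.09), FGF18, a growth factor gene, 1.36-fold (0.445 ± 0.12), and the receptor kinase gene MET 1.27-fold (0.34 ± 0.09), with adjusted p of 8.95e-04, 0.0235 and 0.0255. CCND1 and NOTCH2 passed with each array left out. MYC and MET did not pass with any array left out (adjusted p of 0.0585 to 0.135 and 0.0756 to 0.164), and FGF18 passed in 1 of 4 (0.0298 to 0.205). The FGF18 call also did not hold with the replicate number as a block (adjusted p = 0.0797), nor that of MET with quantile normalization (0.0739) or median centring (0.0593).

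**Figure D4:**
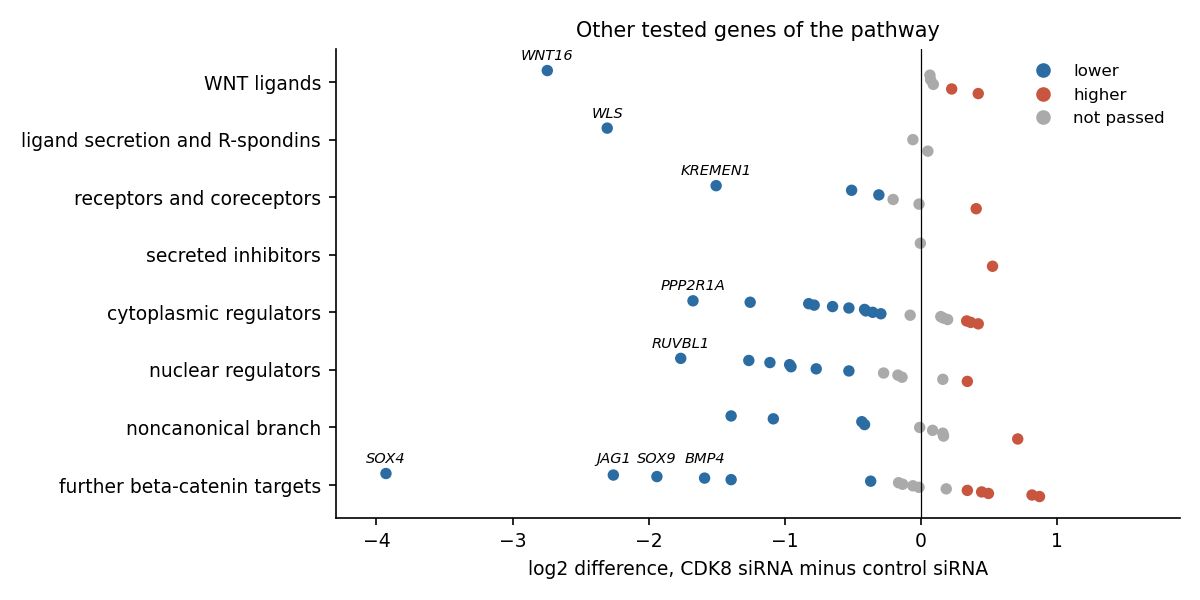
Each point is a tested gene of the pathway outside the member list, placed by its log2 difference, CDK8 siRNA minus control siRNA, and spread vertically within its list for legibility. Blue marks genes called lower, red those called higher and grey those that did not pass, and genes that differ by 1.5 or more are named. WNT16 at -2.75, WLS at -2.31 and SOX4 at -3.93 stand farthest from 0 in their lists.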

How the data were processed

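RNA of HCT116 cells (2 control siRNA and 2 CDK8 siRNA arrays) was labelled with biotin and read on Affymetrix arrays of the whole transcriptome, according to the labels. The deposited values are log2 signals that the authors made with the Expression Console software and its RMA method, per the submitters' processing notes, which name no version or setting. RMA compresses differences at low signal. No detection calls were used, and the number of arrays limits the precision.

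Of 70523 rows 67528 were transcript clusters. The array annotation gave 1 symbol for 23781 of them, several for 1543 and none for the rest; 23777 single symbols matched the RefSeq table of GRCh38.p14. The brightest cluster stood for a gene. Genes with a mean of at least 4.28 (13956) were tested by lmFit and eBayes of limma 3.58.1 (R 4.3.3), without covariates. Figures used matplotlib 3.10.9.

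The members and lists were chosen with earlier results of these data known. Array values are printed for called members with a difference of at least 0.5, for CTNNB1 and for CDK8; up to 4 called genes per other list, those with the widest differences, are named. Chosen after their values were seen were the array values of BCL9L, VANGL1, CDK19, CCND1 and MYC and the naming of NOTCH2, FGF18, MET, PPP2CA, PPP2R5A, FBXW11, TAX1BP3, CDC73 and COL1A1. Alternatives were 2 filters, 2 normalizations, trend and robust settings, the mean of clusters, the replicate block, a threshold of 0.01 and leaving out each array. Leaving out an array left a single array in its group, and fewer of all tested genes were then called.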

Additional observations from a re-analysis of the deposited data

How the results depend on the processing

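Leaving out 1 array gave 1 higher and 11 to 17 lower members, and 1377 to 2097 higher and 1745 to 2414 lower among all genes. Of the 26 called members 11 passed in each such fit, 7 were lost in all 4, and 0 changed sign. At a threshold of 0.01 the members called were 2 higher and 15 lower, while 16% of all tested genes were higher and 18.7% lower. With the replicate number as a block they were 4 higher and 23 lower, PYGO2 passing as lower (adjusted p = 0.0436), and all genes gave 2838 and 3300. Deviations of same-numbered arrays correlated with r = 0.121 across genes, and with 2 pairs and no label of a shared culture the arrays share only a number. Signs turned only for members that had not passed, namely FZD1 (-0.0087 with quantile normalization, -0.025 with median centring, -0.03 to 0.13 with an array left out), APC2 (-0.051, -0.065, and -0.05 to 0.07), NOTUM (-0.029, -0.07, and -0.01 to 0.02) and TNKS2 (-0.14 to 0.03 with an array left out); the cause was not tested. Median centring moved the median of all tested genes from 0.005 to -0.07 and left 3 members higher and 23 lower, while all genes gave 2741 higher and 4359 lower (19.6% and 31.2% of those tested). No filter, trend and robust settings and the mean of clusters kept the calls of all 37 tested members. A filter at the 75th percentile (6.17) tested 25 members, with 4 higher and 16 lower, since the others lay under it. Among all genes tested with that filter 30.6% were called higher and 33.2% lower. Background correction could not be varied, as scanner files were not analysed here.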

Other observations

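Genes of the noncanonical branch of Wnt signalling, which directs cell polarity and movement without β-catenin, were lower in 4 of 9 tested, higher in 1 and did not pass in 4, from a list of 12. The share called was 55.6%, near the 49.5% of all tested genes. Lower calls made up 44.4% and higher calls 11.1%, against 26.4% and 23.1% of all tested genes. VANGL1, a membrane protein of planar cell polarity, fell 2.63-fold (-1.40 ± 0.08, adjusted p = 1.37e-04), with signals of 8.83 and 8.94 with control siRNA and 7.44 and 7.54 with CDK8 siRNA. INVS, a ciliary protein that directs Dishevelled towards the polarity branch, fell 2.12-fold (-1.09 ± 0.09, adjusted p = 3.41e-04). Both passed with each array left out. CELSR2, a cadherin of planar polarity, fell by 0.44 on the log2 scale (adjusted p = 0.00909), a call that did not hold with any array left out (adjusted p of 0.0515 to 0.0969). NLK, a kinase that phosphorylates TCF and LEF proteins, rose 1.64-fold (0.71 ± 0.13, adjusted p = 0.00691), a call that did not hold without control siRNA replicate 1 (adjusted p = 0.119) or replicate 2 (0.126).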
